A study of Caenorhabditis elegans with 2 samples.

Results

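The cytosolic ribosomal protein genes of Caenorhabditis elegans are described here as targets of peak calls in a chromatin immunoprecipitation. They were chosen by name, as the protein-coding genes whose symbol in the Ensembl WBcel235 annotation starts with rps-, rpl- or rla-. This gave 81 genes of the 19973 protein-coding genes on the nuclear chromosomes, namely 31 rps- genes, 47 rpl- genes and 3 rla- genes. The experiment was a ChIP-seq of F55B11.4, a worm protein known in the labels by its sequence name, in 2 immunoprecipitated libraries numbered as biological replicates 1 and 2. Both libraries came from whole hermaphrodite young adults of strain OP385, genotype unc-119(tm4063) III; wgIs385, collected 65 hours after synchronization as starved L1 larvae from bleached adults. The transgene wgIs385 is stably expressed and fuses a GFP-FLAG tag to the C-terminus of F55B11.4, an anti-GFP antibody was used, and chromatin was sheared by sonication. Both replicates are the same transgenic line in the same unc-119 mutant background, all tissues were mixed, and no untagged or other group was analysed here, so there is 1 group and no comparison between conditions.

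Ribosomal protein genes encode the protein part of the cytoplasmic ribosome, with rps- genes for the small subunit, rpl- genes for the large subunit and rla- genes for the stalk that recruits translation factors. They are short, highly transcribed housekeeping genes whose products are made in matched amounts. In animals, several of them carry snoRNA genes inside their introns, and these small nucleolar RNAs are released from the spliced intron and guide modification of ribosomal RNA. A peak caller turns the read pile-up of a ChIP-seq library into intervals, each with a summit, the base of the highest pile-up. A gene is counted as called here where a summit lay in the gene body or in the 500 bp upstream of its annotated 5′ end.

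The DNA under the calls that the results turn on is shown first, in build ce11 (WBcel235) on the strand of the named gene, with coding bases in capitals. Each stretch runs at most 100 bp to either side of the summit and stops at annotated untranslated regions. The call in rps-25, a small subunit gene, was the 1 member call of the pooled list, and its stretch at chrIV:5947134-5947251 ends at the stop codon. The calls in rps-14 and rpl-34, of the small and the large subunit, overlapped between the replicates, and their stretches lie at chrIII:7179294-7179494 and chrIV:12269002-12269165. The rpl-29 stretch at chrIV:13882373-13882573 held the strongest member call of replicate 1. The rps-22 stretch at chrIII:1950058-1950257, upstream of the gene, held the strongest of replicate 2, and its capitals are coding bases of polh-1, a neighbour on the other strand. The rps-13 stretch at chrIII:6374747-6374947 lies in a gene that hosts a snoRNA. The last stretch lies beyond the 3′ end of rpl-9 at chrIII:7571915-7572104, where replicate 2 had a call and replicate 1 and the pooled list had none.
rps-25, pooled: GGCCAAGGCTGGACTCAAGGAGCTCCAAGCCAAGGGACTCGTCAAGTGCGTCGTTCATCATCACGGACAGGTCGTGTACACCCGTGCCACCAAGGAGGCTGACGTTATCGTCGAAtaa
rps-14, replicate 1: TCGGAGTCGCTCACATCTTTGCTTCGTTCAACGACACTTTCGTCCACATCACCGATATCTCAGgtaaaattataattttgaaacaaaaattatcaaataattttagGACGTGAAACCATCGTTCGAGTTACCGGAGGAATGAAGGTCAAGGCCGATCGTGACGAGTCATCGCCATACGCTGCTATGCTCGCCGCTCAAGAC
rpl-34, replicate 2: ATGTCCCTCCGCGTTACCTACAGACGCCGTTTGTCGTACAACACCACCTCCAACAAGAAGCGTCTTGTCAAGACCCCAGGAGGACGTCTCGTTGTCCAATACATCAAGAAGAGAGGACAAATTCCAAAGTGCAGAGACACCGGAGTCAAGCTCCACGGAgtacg
rpl-29, replicate 1: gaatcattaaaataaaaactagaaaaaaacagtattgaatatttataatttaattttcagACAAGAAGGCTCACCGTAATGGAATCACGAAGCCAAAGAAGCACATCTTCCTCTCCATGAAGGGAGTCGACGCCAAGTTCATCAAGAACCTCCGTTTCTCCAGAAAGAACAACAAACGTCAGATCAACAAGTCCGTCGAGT
rps-22, replicate 2: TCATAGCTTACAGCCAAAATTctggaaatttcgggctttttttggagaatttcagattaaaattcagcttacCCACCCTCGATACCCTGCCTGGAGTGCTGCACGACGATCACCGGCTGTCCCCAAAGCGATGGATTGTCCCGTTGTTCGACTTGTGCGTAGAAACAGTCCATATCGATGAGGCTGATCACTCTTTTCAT
rps-13, replicate 1: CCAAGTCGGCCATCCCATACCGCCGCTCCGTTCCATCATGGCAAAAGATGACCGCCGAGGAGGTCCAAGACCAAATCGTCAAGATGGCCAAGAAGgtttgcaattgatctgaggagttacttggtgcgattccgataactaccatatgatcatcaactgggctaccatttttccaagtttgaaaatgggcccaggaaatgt
rpl-9, replicate 2: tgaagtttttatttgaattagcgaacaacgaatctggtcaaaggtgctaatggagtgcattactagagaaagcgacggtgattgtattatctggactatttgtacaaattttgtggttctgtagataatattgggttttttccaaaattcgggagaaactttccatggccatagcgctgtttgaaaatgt

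The authors deposited permissive calls for each replicate and for the pooled replicates, which by their description hold background as well as peaks, and a short list that passed their IDR filter for reproducibility. The ce11 lists held 21050 calls in replicate 1, 14257 in replicate 2, 670 in the pooled list and 48 in the optimal IDR list. Median call width was 490 bp in replicate 1 and 470 bp in the other 3 lists. The number of reads behind a call is not known, and with 1 group of 2 replicates, and the control library not analysed here, no test over samples was possible. Intervals given below are exact (Clopper-Pearson) 95% intervals for a share of genes, and they cover the counting of genes only.

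None of the 81 ribosomal protein genes held a call of the optimal IDR list, which allows a share of up to 4.45%. In that list 0.0901% of all protein-coding genes were called. In the pooled list 1 member was called (1.23%, interval 0.0313% to 6.69%), beside 2.58% of all protein-coding genes and 1.43% of genes of like length. Genes of like length are, for each member, the 50 other protein-coding genes nearest in length, 2705 different genes in all, none more than 11 bp off. Both backgrounds of the pooled list lay inside the members' counting interval.

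In the permissive lists calls at ribosomal protein genes were common. Replicate 1 had a call at 34 of 81 members (42%, interval 31.1% to 53.5%), against 27.1% of genes of like length and 48.1% of all protein-coding genes. Replicate 2 had a call at 23 of 81 members (28.4%, interval 18.9% to 39.5%), against 20.3% of genes of like length and 37.6% of all. The share of all protein-coding genes lay inside the members' counting interval in both replicates. The members lay above genes of their own length by 14.8 percentage points in replicate 1 and 8.1 points in replicate 2. In replicate 2 that difference was within the counting interval of the members' share, and the difference was -0.84 points when each member was set beside genes of its own snoRNA host status, where the host genes set beside host members were longer (median 2513 bp). With only the 5000 strongest calls of each replicate the difference was 3.75 points in replicate 1 and -1.23 points in replicate 2.

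Members were short genes, and longer genes were called more often. Member genes ran from 276 to 1734 bp with a median of 754 bp, while the 19892 other protein-coding genes had a median of 2034 bp, and 11.6% of protein-coding genes were shorter than the median member. Among members of 401 to 600 bp, replicate 1 called 6 of 15 and replicate 2 called 7 of 15, against 21.1% and 14.8% of other genes of that size. Among members of 601 to 800 bp, the calls were 11 of 26 in replicate 1 and 4 of 26 in replicate 2, against 23.6% and 18.8%. Among those of 801 to 1000 bp they were 8 of 16 and 3 of 16, against 29.4% and 21.5%. Replicate 1 was above the other genes in these 3 classes, whereas replicate 2 was above in the first and below in the next pair. Of the 10 members of 1001 to 1200 bp, 4 were called in replicate 1 and 5 in replicate 2, against 33.4% and 23%. Of the 7 longer members 4 were called in each replicate, against 37.8% and 27.5%, and of the 7 members up to 400 bp 1 and 0 were called, against 13.7% and 11%. The classes hold few members and their counting intervals are wide.

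The split of member calls between gene body and upstream window was 33 and 9 in replicate 1 and 18 and 8 in replicate 2, and for genes of like length it was 860 and 422 and 582 and 331. Upstream of the 5′ end, 9 members (11.1%) had a call in replicate 1 and 8 (9.88%) in replicate 2. Genes of like length had 9.83% and 7.95%, and all protein-coding genes 9.83% and 7.47%, so the upstream shares of members differed from both by less than their counting intervals (5.21% to 20% and 4.36% to 18.5%). In the body, 30 members (37%, interval 26.6% to 48.5%) were called in replicate 1 and 17 (21%, interval 12.7% to 31.5%) in replicate 2. The like-length shares were 18.9% and 13.1%, and the shares of all protein-coding genes 42.3% and 32.7%. The replicate 1 interval for the body lay above the like-length share and the replicate 2 interval included it.

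**Figure D1:**
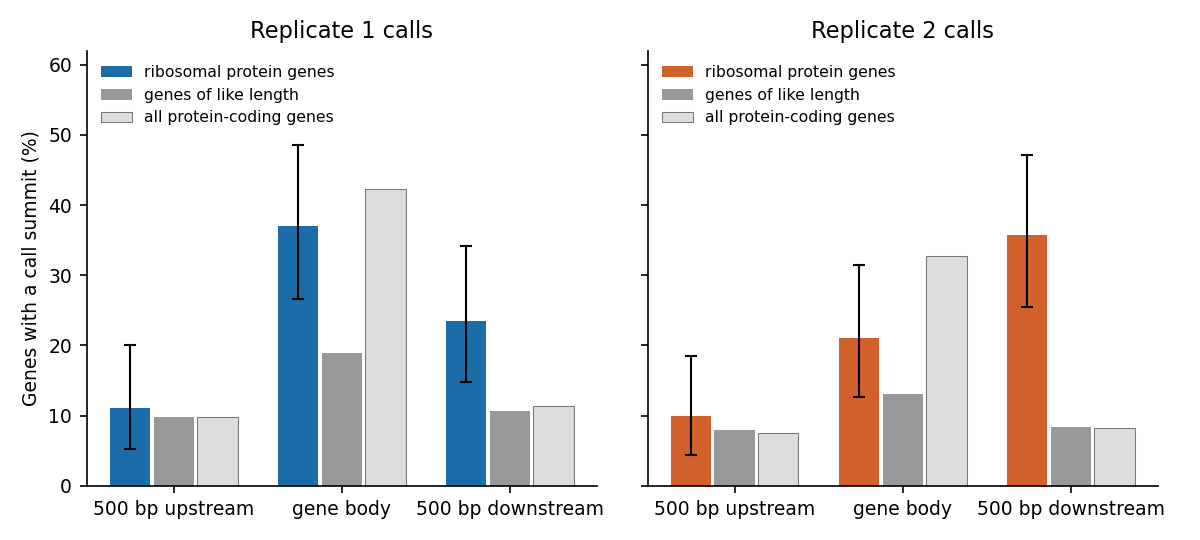
Share of genes with a call summit (%, vertical axis) in the 500 bp upstream, the gene body and the 500 bp downstream, for replicate 1 and replicate 2. Coloured bars are the 81 ribosomal protein genes with exact 95% intervals, dark grey bars genes of like length and light grey bars all protein-coding genes; members stood above genes of like length in the body in replicate 1 (37% against 18.9%) and downstream in both replicates (23.5% against 10.7% and 35.8% against 8.35%).

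Summit density, which allows for gene length, also put member bodies above genes of like length. Bodies of members held 5.12 summits per 10 kb in replicate 1, against 2.67 in genes of like length and 2.1 over the nuclear genome. In replicate 2 they held 2.79, against 1.81 and 1.42. Bodies of all protein-coding genes held 2.26 and 1.54, so by density members lay above them, while by share they lay below. Of the member calls, 12 of 42 in replicate 1 and 9 of 26 in replicate 2 also lay in the window of another protein-coding gene. Of the summits within bodies, 28 of 33 in replicate 1 and 17 of 18 in replicate 2 lay in exons, which make up 73.3% of member body sequence, and 22 and 16 of them in coding sequence. Member exons carried 5.93 summits per 10 kb in replicate 1 and 3.6 in replicate 2, and member introns 2.9 and 0.581, while in genes of like length exons carried 2.79 and 1.91 and introns 2.31 and 1.5. Member bodies were also richer in G and C, at 44.5% ± 3.88 (SD, n = 81 genes) against 38.3% ± 5.18 in genes of like length. Set beside genes of both like length and like GC, chosen after seeing the data, the body share was 21.7% in replicate 1 and 17.2% in replicate 2, against the members' 37% and 21%. Members with a body call had 44.9% GC in replicate 1 and 45.1% in replicate 2, those without 44.3% and 44.4%. What GC, mappability or transcription contribute was not tested beyond these values.

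By subunit, the small subunit genes were called at 12 of 31 in replicate 1 (38.7%) and 7 of 31 in replicate 2 (22.6%), against like-length shares of 28.2% and 19.9%. The large subunit genes were called at 19 of 47 (40.4%) and 14 of 47 (29.8%), against 26.4% and 20.3%. All 3 stalk genes, rla-0, rla-1 and rla-2, were called in replicate 1 and rla-0 and rla-1 also in replicate 2, although with 3 genes the intervals (29.2% to 100% and 9.43% to 99.2%) cover nearly everything. The intervals of small and large subunit genes overlapped in each replicate.

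**Figure D2:**
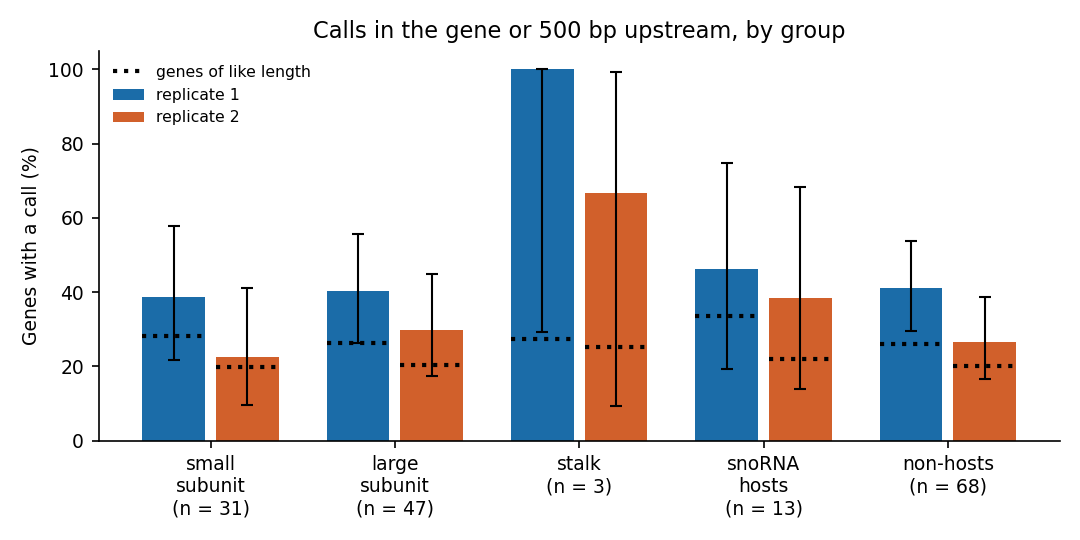
Share of members with a call in the gene or the 500 bp upstream (%, vertical axis), by ribosomal subunit and, from the same 81 genes, by snoRNA host status; bars are replicate 1 (blue) and replicate 2 (orange) with exact 95% intervals, and dotted lines mark genes of like length. Every bar lay above its dotted line, the intervals of the small subunit genes and the hosts included the line in both replicates and those of all 5 groups in replicate 2, and hosts (46.2% and 38.5%) and non-hosts (41.2% and 26.5%) overlapped.

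Of the small subunit genes, rps-25 (chrIV:5947093-5947605, minus strand) was the one member called in both replicates and in the pooled list. Its signal value, the authors' score of call strength that can be compared only within a list, was 8.06 in replicate 1, 21 in replicate 2 and 33.6 in the pooled list. These put it at rank 12658 of 21050, rank 379 of 14257 and rank 215 of 670, so the call was strong in replicate 2 and below the middle of the list in replicate 1. The summits of both replicates lay 23 bp apart in the last coding exon, and the pooled q was 0.566.

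The rps-14 gene (chrIII:7178991-7179588, minus strand) encodes a protein of the small subunit platform, a role known from yeast. It had a signal value of 12.8 at rank 1850 in replicate 1 and of 13.3 at rank 5607 in replicate 2. Its summits lay 113 bp apart, in the first intron in replicate 1 and in the coding exon before it in replicate 2. The rps-22 gene (chrIII:1950535-1951425, plus strand) had its replicate 2 call 377 bp upstream, with a signal value of 22.7 at rank 231 and a q of 0.254. Its replicate 1 call was weak, with a signal value of 7.17 at rank 17365, and lay 638 bp away in a 5′ untranslated exon. The rps-22 calls of the replicates therefore marked different places, and the upstream one also lay in the body of polh-1. The rps-7 gene (chrI:10330879-10331808, plus strand) likewise had calls 1079 bp apart, at signal values of 6.67 in replicate 1 and 10.6 in replicate 2, both near the bottom of their lists.

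Among the large subunit genes, rpl-4 (chrI:4645662-4646963, minus strand), whose product lines the peptide exit tunnel in yeast and other species, was called at its start in both replicates. Its summits lay 16 and 47 bp inside the gene, with signal values of 10.3 at rank 5237 in replicate 1 and 17.6 at rank 1290 in replicate 2. The replicate 1 summit also fell in the window of B0041.8. The rpl-41.1 gene (chrI:4789190-4789592, plus strand), which encodes a very short basic peptide, had upstream summits only 3 bp apart, at signal values of 8.71 and 17.1. The rpl-34 gene (chrIV:12268995-12269490, plus strand) had summits 10 and 70 bp inside the gene, at signal values of 7.46 and 13.6. The closest calls of the replicates thus sat just inside the 5′ end at rpl-4 and rpl-34 and upstream of it at rpl-41.1.

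The remaining large subunit genes called in both replicates differed more. The rpl-3 gene (chrIII:3867854-3869587, plus strand), whose product lies close to the peptidyl transferase centre in yeast, was called 214 bp upstream in replicate 2 with a signal value of 19.3 at rank 699. Its replicate 1 call, with a signal value of 8.63 at rank 10354, lay 1319 bp away in coding sequence. The rpl-1 gene (chrI:2875398-2876308, minus strand) had body calls 499 bp apart, at signal values of 9.94 and 10.7, the replicate 2 call also in the window of Y71F9AL.12. The calls of rpl-3 and rpl-1 did not overlap between replicates. The rpl-16 gene (chrIII:3502841-3503604, minus strand) had overlapping calls 112 bp apart near its 3′ end, both also in the window of M01F1.8. The rpl-15 gene (chrIV:653480-654576, minus strand) had overlapping upstream calls 131 bp apart. The best ranks of rpl-15 were at 69.6% and 78.8% of the lists. Those of rpl-16 were at 22.1% and 87.8%, the first of them from a further call upstream of the gene, also in the window of lias-1.

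The stalk gene rla-0 (chrI:10567894-10569017, plus strand) encodes the scaffold of the stalk, and rla-1 (chrI:2069086-2069575, minus strand) one of the acidic proteins bound to it. In rla-1 the summits of replicates 1 and 2 lay 22 bp apart in an intron, with signal values of 9.83 and 12.1. In rla-0 they lay 402 bp apart in coding sequence, with signal values of 8.06 and 11.7, and the replicate 2 summit also fell in the window of tct-1. The third gene, rla-2, had 1 call near the end of the replicate 1 list, at rank 20615 and a signal value of 6.66. None of the 3 had a pooled call.

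Calls at ribosomal protein genes were of ordinary strength. In replicate 1 their signal values ran from 6.61 to 14 with a median of 8.67, beside a list median of 8.58 and a list maximum of 937. In replicate 2 they ran from 10.3 to 22.7 with a median of 12.5, beside 12.6 and 1229. The median member call sat at 48.3% of the replicate 1 list and 51.4% of the replicate 2 list, against 45.1% and 46.3% for calls at genes of like length. The strongest member call of replicate 1, in rpl-29 at rank 1077, was outside the strongest 1000, while replicate 2 had 3 members inside it, rps-22, rps-25 and rpl-3. Among the strongest 1000 were thus 0 of 42 and 3 of 26 member calls, beside 4.66% and 6.88% of all nuclear calls. The q-values of member calls ran from 0.366 to 0.957 in replicate 1 and from 0.254 to 0.959 in replicate 2. The lowest q of a member call in the gene or upstream in these lists was therefore 0.254.

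**Figure D3:**
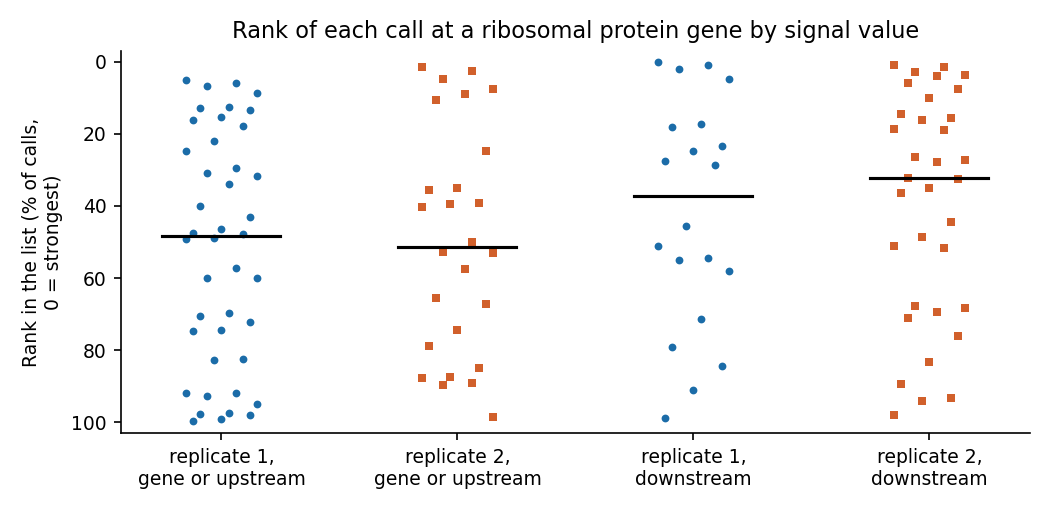
Rank of each member call within its list by signal value, as a percentage of the calls in the list (vertical axis, 0 for the strongest), in the gene or upstream window and in the 500 bp downstream; points are calls, their sideways spread has no meaning and bars are medians. Medians lay at 48.3% and 51.4% in the gene and upstream window and at 37.2% and 32.3% downstream.

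In all, 43 of 81 members (53.1%, interval 41.7% to 64.3%) were called in either replicate, against 38.9% of genes of like length and 61% of all protein-coding genes. Both replicates called 14 members (17.3%, interval 9.78% to 27.3%), against 8.57% and 24.7%. Replicate 1 alone called 20 members, replicate 2 alone called 9 and neither called 38. Of the members called in replicate 1, 41.2% were also called in replicate 2, and 60.9% the other way. For genes of like length these shares were 32.6% and 42.7%. Where both replicates called a member, the called intervals overlapped at 9 of 14 (64.3%), against 184 of 238 genes of like length (77.3%). A gene called in both lists was therefore not always called at the same place.

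The 13 members that host a snoRNA gene in an intron were rpl-2, rpl-4, rpl-6, rpl-7, rpl-7A, rpl-15, rpl-24.1, rpl-26, rps-4, rps-12, rps-13, rps-23 and rps-29. They were longer than the other 68 members, with medians of 1062 and 690.5 bp. Replicate 1 called 6 of 13 hosts (46.2%, interval 19.2% to 74.9%) and 28 of 68 non-hosts (41.2%, interval 29.4% to 53.8%), against 33.5% and 25.9% of genes of like length. Replicate 2 called 5 of 13 hosts (38.5%, interval 13.9% to 68.4%) and 18 of 68 non-hosts (26.5%, interval 16.5% to 38.6%), against 22% and 20%. Hosts and non-hosts overlapped in each replicate, and both replicates called 3 hosts (23.1%) and 11 non-hosts (16.2%), against 9.85% and 8.32% of genes of like length. The like-length share of the hosts lay inside their interval (5.04% to 53.8%), and that of the non-hosts lay just below theirs (8.36% to 27.1%).

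Within the hosts 1 summit of the replicate lists fell on the snoRNA gene, and the share of host sequence that snoRNA genes cover was not measured. In rps-13 (chrIII:6374097-6374997, minus strand), 1 of 3 replicate 1 summits lay inside the snoRNA gene C16A3.11, at a signal value of 7.16 and rank 17417. The nearest summits in the other hosts were 62 bp from the snoRNA in rpl-6, 84 bp in rps-29, 94 bp in rpl-7 and 137 bp in rpl-4, with 371 bp in rpl-15, 554 bp in rpl-7A and 733 bp in rpl-24.1. The rps-29 calls, at signal values of 11.9 in replicate 1 and 13.6 in replicate 2, lay 735 bp apart and did not overlap. The replicate 1 call also lay in the window of trpp-11 and the replicate 2 call in that of snt-2. The rpl-24.1 call, at a signal value of 18 and rank 1104 of replicate 2, was the strongest of a host and lay in a 3′ untranslated exon shared with the window of a neighbouring gene. No host member had a pooled call. Of 146 other snoRNA hosts, 18.5% had a pooled call and 4.11% an optimal IDR call, but these genes had a median length of 6589.5 bp and only 10 of them were as short as the longest member, so the comparison cannot be separated from length.

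Beyond their 3′ ends the members were also called more often than genes of their length, and in replicate 2 this difference was larger than those in the body and upstream. This window of 500 bp downstream was examined after the profile of summits along the genes had been seen. In replicate 1, 19 of 81 members (23.5%, interval 14.8% to 34.2%) had a downstream summit, against 10.7% of genes of like length and 11.38% of all protein-coding genes. In replicate 2, 29 of 81 (35.8%, interval 25.4% to 47.2%) had one, against 8.35% and 8.271%. In the pooled list 5 members (6.17%, interval 2.03% to 13.8%) had one, against 0.642% and 0.6609%. Members lay above both backgrounds in each list, and in each the interval lay above the like-length share. The pooled list comes from the same libraries as the replicate lists, and the window was examined after the profile was seen. The lists are therefore not separate support. The differences, 12.8 points in replicate 1 and 27.5 in replicate 2, fell to 4.72 and 6.89 when only summits outside every protein-coding gene were counted, with 9 members (11.1%) called in each replicate. The counting interval of that share (5.21% to 20%) included the like-length share in replicate 1 (6.4%) and lay above it in replicate 2 (4.22%). These shares do not allow for the room left. Other protein-coding genes covered on average 64% of a member's window, against 35.7% for genes of like length. With the 5000 strongest calls of each replicate the differences were 5.21 and 16 points, and with calls at or above the list's median signal value 7.36 and 17.3.

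The density of summits peaked around the 3′ end. In replicate 2 it was 3.46 per 10 kb in the last 250 bp before the end, 9.88 in the first 250 bp beyond it and 6.91 in the next 250 bp, and it had fallen to 1.48 by 750 to 999 bp. Genes of like length stayed between 1.27 and 2.06 over the same profile. In replicate 1 the highest density, 7.9 per 10 kb, lay in the last 250 bp before the end, with 4.94 in both of the following bins. The peak thus lay inside the gene end in replicate 1 and just outside it in replicate 2. In the 4 bins upstream of the 5′ end the members had between 1.48 and 3.46 summits per 10 kb.

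**Figure D4:**
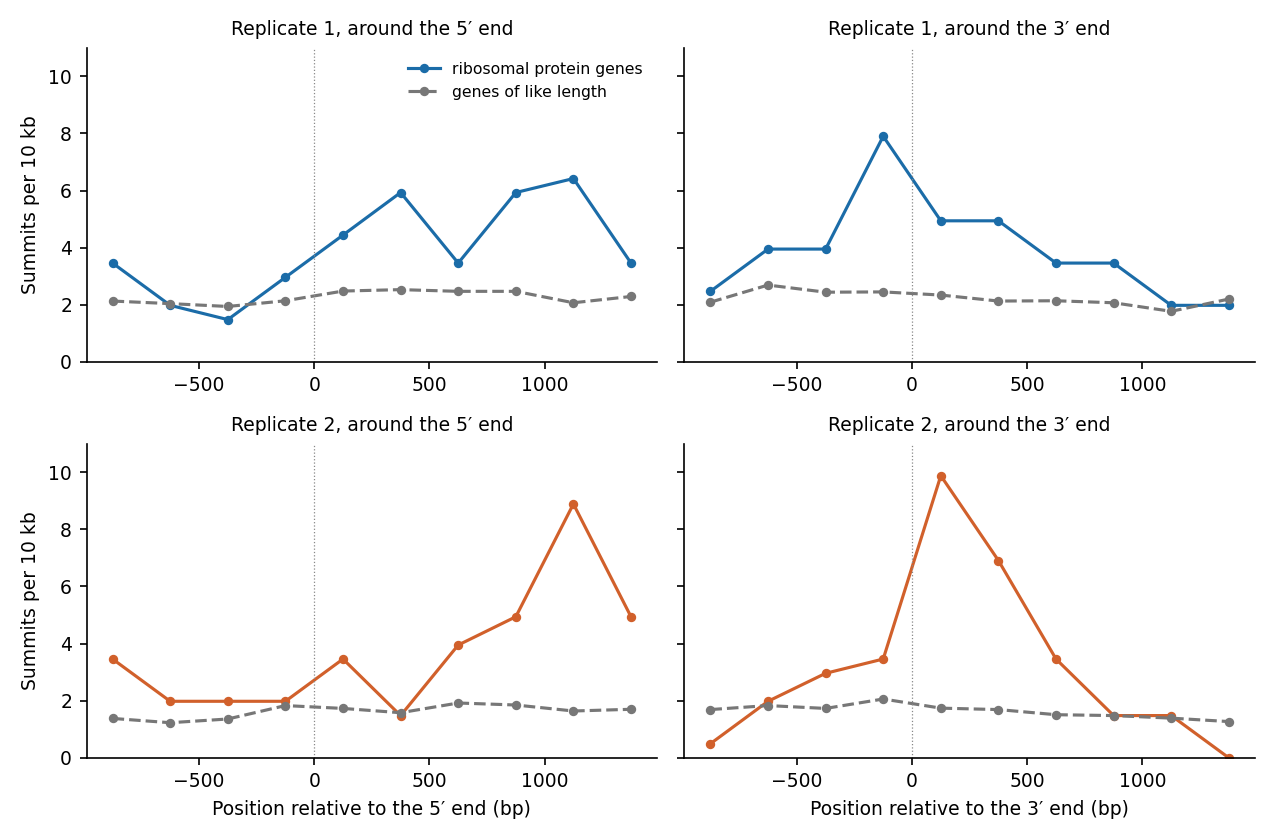
Summits per 10 kb (vertical axis) in bins of 250 bp by position relative to the annotated 5′ end (left) and 3′ end (right), for replicate 1 (top) and replicate 2 (bottom); solid lines are the 81 members and dashed lines genes of like length. Around the 3′ end the members rose to 7.9 in replicate 1 and 9.88 in replicate 2, above a nearly flat line for genes of like length.

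The downstream calls included stronger ones than those in the genes. In replicate 1 the calls beyond rps-22 (rank 211 in replicate 1 and 5191 in replicate 2) and rps-13 (rank 424 and 849) were within the strongest 1000. The rps-22 summits of both replicates lay in the body of F53A3.7, a neighbouring gene, and those of rps-13 in the body of thoc-2. In replicate 2, rpl-35 (chrIII:7855134-7855646, plus strand), with a signal value of 25 at rank 128, and rpl-9 (chrIII:7572105-7572831, minus strand), with 23 at rank 211, had the highest-ranked downstream calls. Their −log10 q, larger for a smaller q, was 0.75 and 0.59. The rpl-35 summit lay in the body of tag-307, while that of rpl-9 lay in no protein-coding gene and had no counterpart in replicate 1. Of the downstream calls, 3 of 20 in replicate 1 (15%) and 6 of 34 in replicate 2 (17.6%) were among the strongest 1000, as were 4.66% and 6.88% of all nuclear calls. The members named here were picked for their downstream values.

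Downstream calls recurred between replicates at 10 members (12.3%, interval 6.08% to 21.5%), against 2.17% of genes of like length and 2.31% of all protein-coding genes, among them rpl-17, rpl-31, rpl-35, rpl-36.A, rps-4, rps-13, rps-15, rps-20 and rps-22. The closest summits of the replicates lay between 10 bp (rps-4) and 332 bp (rpl-35) apart. The pooled downstream calls included those beyond rps-13, rpl-31, rps-20 and rps-22, which are among the 10. Their −log10 q was 0.20, 0.18, 0.04 and 0.03 in that order, against 0.25 for the pooled rps-25 call, whose q was 0.566. Small subunit genes had a downstream call at 29% in replicate 1 and 35.5% in replicate 2, and large subunit genes at 21.3% and 36.2%. Hosts had one at 30.8% and 46.2% and non-hosts at 22.1% and 33.8%, so the downstream calls were spread over the gene groups.

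Neighbouring genes lay closer behind members than behind genes of like length. On average 64% of a member's downstream window was covered by another protein-coding gene, against 35.7% for genes of like length, and 11 of 20 downstream summits in replicate 1 and 25 of 34 in replicate 2 lay in the body of a gene that is no member. Among the 13 members whose window held no other protein-coding gene, replicate 1 called 3 (23.1%) and replicate 2 called 5 (38.5%), against 9.84% and 5.53% of 1392 like-length genes with such a window. Among the 68 with an occupied window the shares were 23.5% and 35.3%, against 11.2% and 10.5%. The members' shares were the higher ones in empty and in occupied windows, with few genes behind those in the empty ones. A snoRNA, tRNA, snRNA or rRNA gene lay within 500 bp of 3 of the 20 downstream summits in replicate 1 and 4 of the 34 in replicate 2. Whether the neighbours' own transcription has a part in these calls was not tested.

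**Figure D5:**
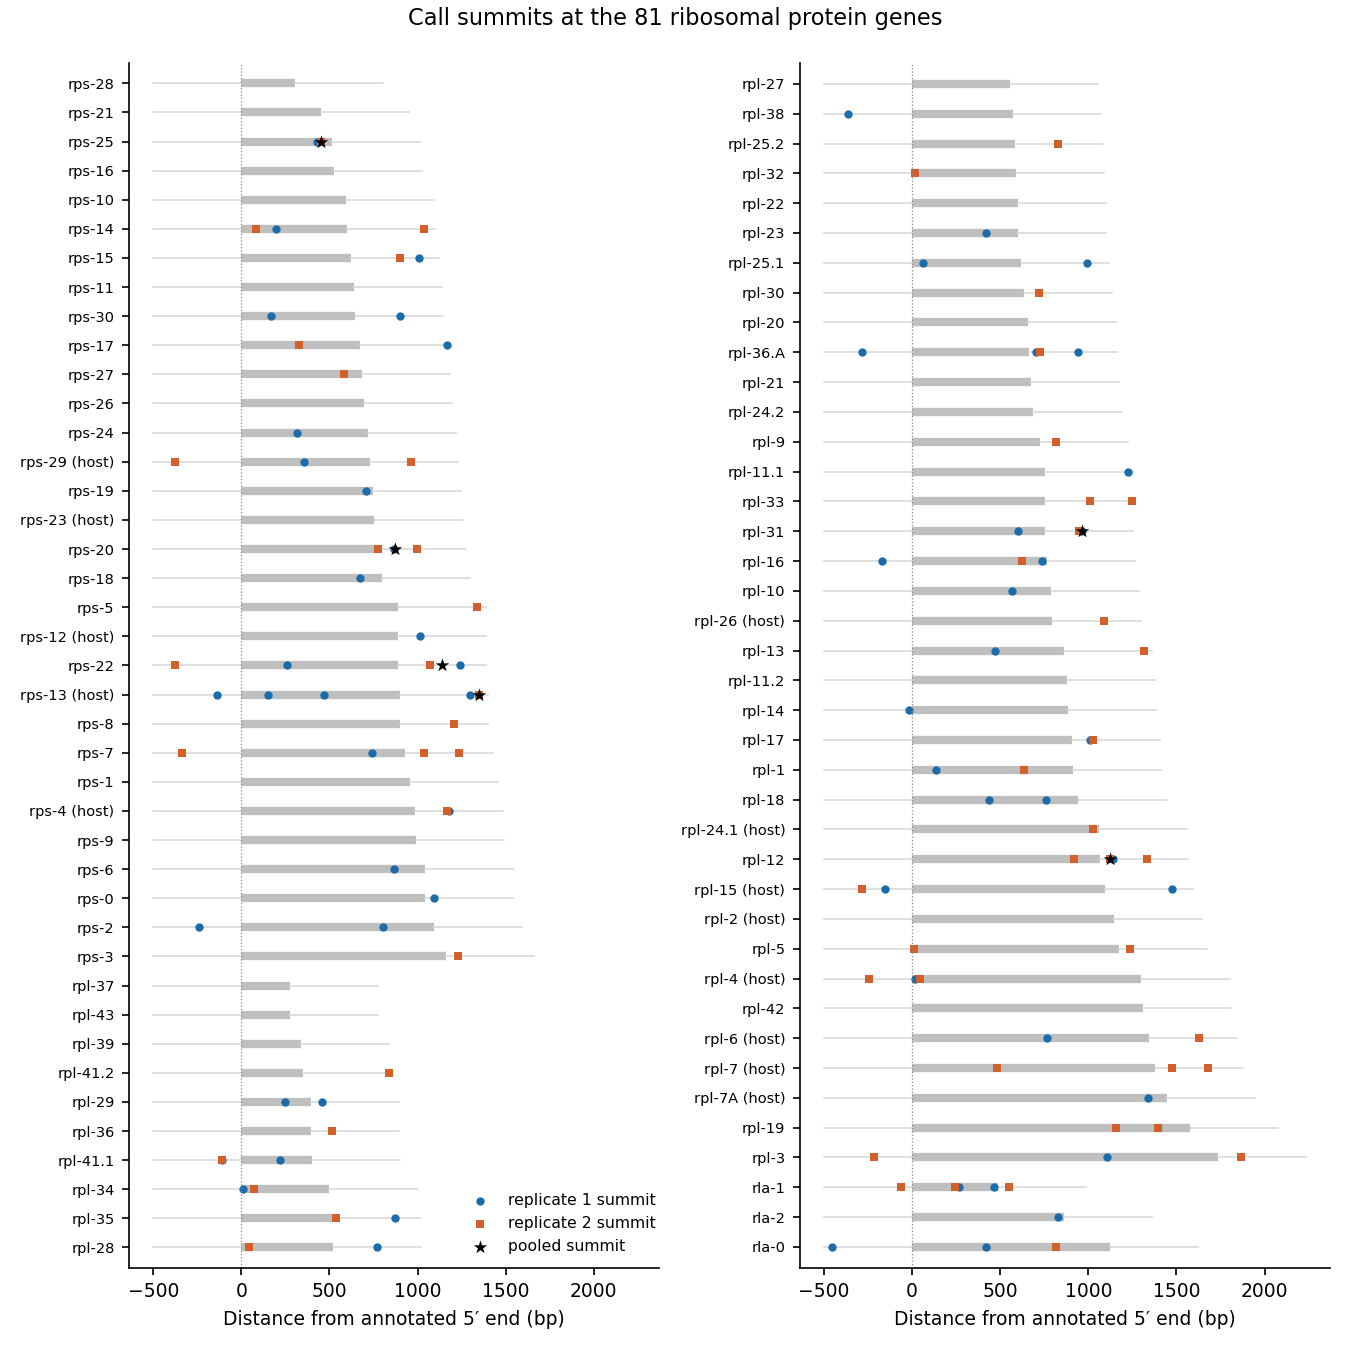
Each of the 81 ribosomal protein genes drawn from its 5′ end (0 on the horizontal axis, in bp), ordered by subunit and length, with the gene body as a thick grey bar and the 500 bp on either side as a thin line; circles are replicate 1 summits, squares replicate 2 summits and stars pooled summits, which can cover the others. Summits lie in all 3 windows, and 20 genes carry none.

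Counting genes, upstream and downstream windows together, 61 members (75.3%, interval 64.5% to 84.2%) had a call in at least 1 replicate, against 48.7% of genes of like length and 66.9% of all protein-coding genes, and 20 had none. The 20 were rps-1, rps-9, rps-10, rps-11, rps-16, rps-21, rps-23, rps-26, rps-28, rpl-2, rpl-11.2, rpl-20, rpl-21, rpl-22, rpl-24.2, rpl-27, rpl-37, rpl-39, rpl-42 and rpl-43. Of these, rpl-2 and rpl-37 have close copies, with 59.4% and 69% of the 32-base words of their bodies found elsewhere in the genome. In rpl-7A, which had a replicate 1 call, the share was 45.6%, and 66 of 81 members had no such word in the body. Upstream the highest shares were 28.4% at rps-24 and 8.1% at rpl-7A, and the downstream windows were not counted. Whether reads were placed uniquely was not tested.

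Other genes of the translation machinery were counted in the same windows. The 70 mitochondrial ribosomal protein genes (mrps- and mrpl-), which build the separate ribosome of mitochondria, were called in the gene or upstream at 42.9% in replicate 1 and 27.1% in replicate 2, close to the cytosolic set. Their like-length shares were 37.5% and 28.5%, so they lay near their own background in both. Downstream 12 of the 70 were called in replicate 1 (17.1%) and 8 of the 70 in replicate 2, against 23.5% and 35.8% of the cytosolic genes. The 33 initiation and elongation factor genes were called in the gene or upstream at 48.5% in each replicate, against like-length shares of 47.7% and 35.2%. Of these, eef-2, the elongation factor that moves the ribosome along the mRNA, had a pooled call (3.03%, against a like-length share of 1.94%). Downstream shares of the 33 were 24.2% and 18.2%. The 32 aminoacyl-tRNA synthetase genes, which charge tRNAs with amino acids, were called at 78.1% and 50%, against 59.9% and 46.9%. Of these, rars-2 had a pooled call (3.12%, against a like-length share of 2.69%). Downstream shares of the 32 were 21.9% and 15.6%. In replicate 1 the downstream shares of these 3 lists lay inside the members' counting interval, and in replicate 2 they lay below it. In both replicates all 3 lay above the share of all protein-coding genes, so higher downstream shares were not particular to the members. The difference between these small lists and the members was not tested.

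The lists closer to ribosomal RNA were small. Of 10 RNA polymerase I and III subunit genes, 6 were called in each replicate, against like-length shares of 53.4% and 42.8%, and 0 and 1 had a downstream call. Of 10 genes for snoRNP core proteins and nucleolar factors, 5 were called in replicate 1 and 8 in replicate 2, against 50% and 45%. Of these, ncl-1, a regulator of nucleolar size in worms, and nol-56, a core protein of box C/D snoRNPs, had pooled calls in the gene body. That was 20% of the list, against a like-length share of 3%. Downstream calls were at 3 and 1 of the 10, while all protein-coding genes had them at 11.38% and 8.271%. None of the 5 lists had an optimal IDR call.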

How the data were processed

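ChIP-seq of GFP-tagged F55B11.4 in 2 replicates was analysed from peak lists, not reads. Per the deposited notes, the authors called each permissive list against 1 control library, common to both replicates and not analysed here, and derived the optimal IDR list from them; build ce11. Not given in the sources used here are the aligner, the caller and its thresholds. Deposited calls carry a signal value, a score on an unstated scale that was used only to rank calls within a list, and a −log10 q-value as the authors' caller wrote it. Positions were used as deposited, with the summit at the interval start plus the offset. The deposited ce10 lists were not used.

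Genes, exons and snoRNA genes came from the Ensembl 115 annotation of WBcel235, sequence from the RefSeq genome of that assembly. A call counted for every gene whose body or 500 bp upstream held its summit. Hosts have a snoRNA gene wholly inside an intron. For each member the 50 other nuclear protein-coding genes nearest in length gave the like-length share, averaged over members. Named genes were members with a pooled or optimal call or called in both replicates, hosts with a call and the strongest member call of each list, 20 in all; genes named for downstream calls were chosen after their values were seen. Members and lists were chosen with earlier results of these data known. No test over samples was possible, because there is 1 group of 2 replicates, so shares carry exact 95% binomial intervals that cover the counting of genes only. The counting steps were tested on simulated data. Depth in reads is unknown, which limits the precision. Alternatives varied the window, the overlap, the strength of calls and the like-length genes. Python 3.11.15, SciPy 1.17.1 and Matplotlib 3.10.9 were used. The calls beyond the 3′ end of 1 member are not reported here one by one, although they are in the counts and ranges.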

Additional observations from a re-analysis of the deposited data

How the results depend on the processing

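Of 141 alternative values for 21 results, 98 stayed within the counting interval of the main share and in its direction, 36 moved further and 7 reversed; the cause of these changes was not tested beyond what each setting does. Reversals concerned the difference from genes of like length: in replicate 2 from 8.1 points to -1.23 with the 5000 strongest calls and -0.84 with genes of the same host status, and in the pooled list, where 1 member was called, from -0.198 to 2.02 with 1000 bp upstream, 5.53 with interval overlap, 0.691 with signal values at or above the median, 0.148 with summits held by 1 gene and 0.0988 with autosomal genes (moved to -2.57 with the same host status). With the 5000 strongest calls the replicate 1 values became 12.3% for all members, 2.47% upstream, 9.88% in the body, 15.4% of hosts, 11.8% of non-hosts and 3.75 points for the difference, and the replicate 2 values 7.41% for all members, 3.7% in the body and 5.88% of non-hosts; either replicate called 19.8% and both 0%. With calls at or above the median signal value, replicate 1 gave 23.5% of members, 4.94% upstream, 21% in the body and 22.1% of non-hosts, replicate 2 gave 13.6%, 8.64% in the body and 11.8% of non-hosts, either gave 30.9% and both 6.17%. With 1000 bp upstream the upstream shares rose to 23.5% and 22.2%, replicate 1 non-hosts to 54.4% and either replicate to 65.4%. Interval overlap gave 22.2% upstream in replicate 1, 42% of members, 39.5% in the body and 41.2% of non-hosts in replicate 2, 69.1% for either replicate and 7.41% in the pooled list. Summits held by 1 gene gave 30.9% in replicate 1 and 40.7% for either. Leaving out 1 replicate took the share called in either from 53.1% to between 28.4% and 42%. The downstream difference, examined with alternatives all chosen after seeing the data, was 12.8 points in replicate 1 and 27.5 in replicate 2; it stayed above 0 under all of them, and in replicate 2 moved to 16 with the 5000 strongest calls and to 6.89 with summits outside every protein-coding gene. Counting only summits outside every protein-coding gene left members less free window than genes of like length. No paired analysis was possible because there is only 1 group. Calls rest on an unknown number of reads, so a member without a call is not shown to lack binding.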

Other observations

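Pooled intervals touched the windows of 6 members (7.41%), 5.53 points above the share of genes of like length. Only the rps-25 interval had its summit in the window. Others were at rpl-31 and rps-20, with summits 207 and 100 bp beyond the gene, and at rps-26 and rps-29, with summits 584 and 581 bp from the gene body. The rps-29 and rps-26 summits lay in windows of the neighbouring genes snt-2 and tmem-107.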
